A study of Mus musculus with 6 samples.

Results

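The genes described here encode subunits of the mitochondrial respiratory chain and ATP synthase that are made from nuclear DNA. They were picked by a rule on gene symbols, set with earlier results of these data known. Of the 18253 symbols listed in at least 1 library, 83 belonged to them. By symbol, 37 were assigned to complex I, 4 to complex II, 9 to complex III, 16 to complex IV and 17 to complex V. The libraries came from liver of C57BL/6 mice labelled as postnatal day 21. In all 6 libraries the liver had cholestasis induced with ANIT (alpha-naphthylisothiocyanate), which damages the bile duct epithelium. In 3 libraries ANIT was the only agent, and in 3 celastrol, a plant triterpenoid, was given as well (called celastrol below). A treatment time of 5 days is recorded for all 6 libraries. No library of an untreated animal was analysed here, so no value shows a departure from normal liver. Whether each library is 1 animal is not stated in the labels, so p-values speak only of the spread among these 6 samples, which may be technical.

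The respiratory chain lies in the inner mitochondrial membrane. Complexes I and II pass electrons from NADH and succinate to ubiquinone, complex III passes them to cytochrome c, and complex IV passes them to oxygen. Complexes I, III and IV pump protons, and complex V (ATP synthase) uses the gradient to make ATP. Hepatocytes are rich in mitochondria and depend on this pathway for urea and glucose synthesis. Several subunits are encoded by mitochondrial DNA, but no such gene was listed in these libraries. A few matched symbols are not classical subunits of the complex their name gives. Ndufa4 is now assigned to complex IV, Cox7a2l is a factor of respiratory supercomplexes, and Atp5s and Atp5sl are accessory or assembly factors.

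Levels are given in FPKM as deposited, a unit that corrects fragment counts for gene length and for library depth. Depth, estimated from the spacing of low values, was 18940000 to 19840000 reads per library. A gene was tested if it reached 1 FPKM in at least 3 libraries, which 10593 genes did, 78 of them among the 83. Hepatocyte markers were abundant in every library. The summed FPKM of 6 of them lay between 37795 and 49694 with ANIT and between 12327 and 18648 with celastrol, and Alb alone fell (log2 fold change -2.27, adjusted p = 0.0024 by limma). Over all tested genes 20.6% fell. The 10 most abundant genes took 20.3 to 21.9% of all FPKM in the ANIT libraries and 33.2%, 20.7% and 31.5% in celastrol replicates 1, 2 and 3.

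Most of the respiratory chain genes were lower in celastrol replicates 1 and 3 than with ANIT, but not in celastrol replicate 2. Over the 78 tested genes, the median of log2(FPKM + 1) relative to the ANIT mean was -0.29, 0.17 and -0.39 in celastrol replicates 1, 2 and 3. In the ANIT libraries it was 0.06, 0.00 and -0.06. The celastrol libraries thus lay on both sides of the ANIT libraries. In celastrol replicate 1, 65 of the 78 genes lay below every ANIT library, and in replicate 3, 74 did. In celastrol replicate 2 only 8 did, and 52 lay above every ANIT library. The same counts over all tested genes were 59.9%, 43.8% and 62.9% below every ANIT library and 16.1%, 27.8% and 13.3% above. The median of all tested genes was -0.21, -0.07 and -0.24 in the 3 celastrol libraries, so in replicate 2 the respiratory chain genes were displaced upward and the median gene was not.

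**Figure D1:**
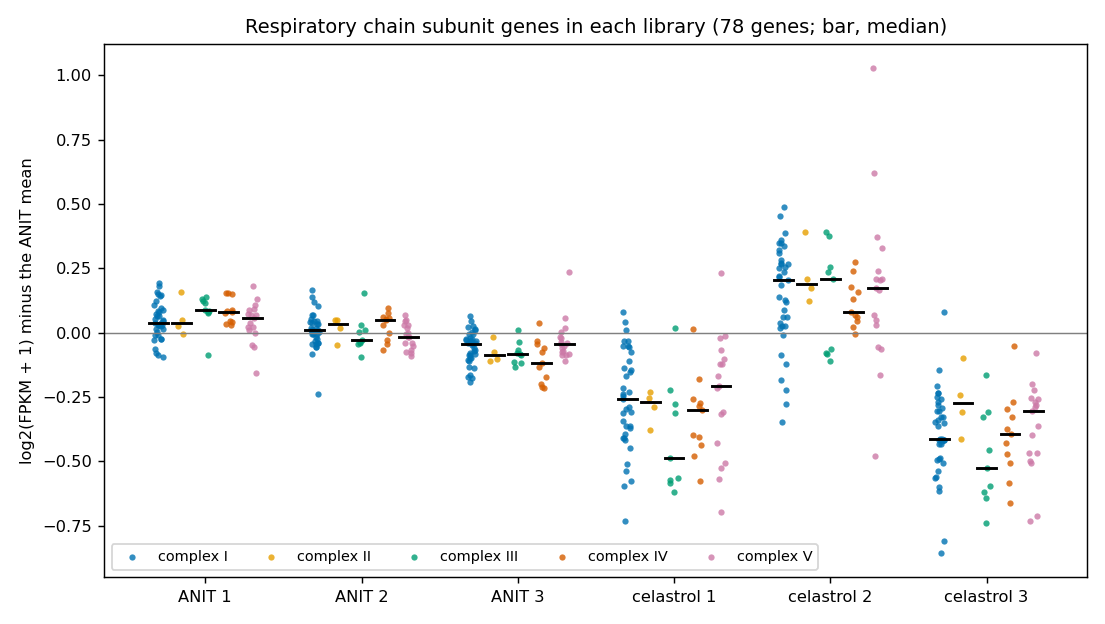
Each point is 1 of 78 respiratory chain genes, coloured by complex, and each bar is the median of a complex. The vertical axis is log2(FPKM + 1) minus the ANIT mean, the horizontal axis the 3 ANIT and 3 ANIT plus celastrol (celastrol) libraries. The overall medians of -0.29, 0.17 and -0.39 place celastrol replicates 1 and 3 below and replicate 2 above the ANIT libraries.

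Celastrol replicate 2 also stood apart in its tissue markers. Its 6 striated muscle markers summed to 24.87 FPKM, against 0.14, 0.68 and 1.02 FPKM in the ANIT libraries and 0.50 and 0.93 FPKM in the other celastrol libraries. Acta1, the skeletal muscle actin, was listed at 8.48 FPKM there and at no more than 0.07 elsewhere, and Myh7, a slow muscle myosin, at 0.28 there and at 0 elsewhere. The part of these markers, and of the share taken by the most abundant genes, in the level of the respiratory chain genes was not tested. Calls for the named subunits and the counts of each list are given below also without this library.

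With all 6 libraries, 2 of the 78 genes fell and none rose by limma on log2(FPKM + 1) at an adjusted p under 0.05. Over all tested genes 20.6% fell and 4.41% rose. At an unadjusted p under 0.05, 10 of the 78 were lower and 0 higher. The share of all tested genes at an unadjusted p is not given here, so such counts are not set against it. The log2 fold change was below 0 for 66 genes and above 0 for 12, with a median of -0.17, equal to the median of all tested genes. Groups did not overlap for 8 genes, 7 with celastrol below ANIT (36.6% of all tested genes) and 1 with celastrol above (8.35%). Without celastrol replicate 2, 38 of the 78 fell and none rose, where 31.4% of all tested genes fell and 4.86% rose, and the median was -0.32 against -0.22. Of these 38, celastrol replicate 2 was at or above the ANIT mean for 25.

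Scaling the libraries by the median ratio centres the typical gene, so it removes any shift common to most genes, whatever its source. A median near 0 over all tested genes therefore follows from the scaling itself. The median became 0.01 for the 78 genes and -0.02 for all tested genes, and 35 genes were below 0 and 43 above. On this scale 2 fell (11% of all tested genes) and 1 rose (7.57%). With median-ratio scaling and without celastrol replicate 2, 7 fell (10.9% of all tested genes) and none rose (7.77%), with a median of -0.08. A direction for the chain as a whole was thus not kept across scalings and libraries.

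The number of falling genes was also 2 with a pseudocount of 0.1 (20.4% of all tested genes lower, 4.3% higher), with the replicate number as a block (19.9% and 4.52%) and without the 20 most abundant genes (16.5% and 5.29%). Under a length correction 2 fell and 1 rose (10.8% and 8.97%). Rescaled to TPM, where every library has the same sum, 10 fell (32.7% and 3.52%). No gene passed without the filter (9.18% and 2.26%) or with the block and median-ratio scaling together (9.08% and 6.18%). None passed without ANIT replicate 1 (12.1% and 2.8%), 2 (9.53% and 2.45%) or 3 (14.4% and 2.99%), or without celastrol replicate 1 (8.58% and 2.06%) or 3 (12.3% and 3.68%). At every one of these settings the share of respiratory chain genes that fell was below the share of all tested genes, in several because none passed. The order was reversed on FPKM as deposited without celastrol replicate 2. There 38 respiratory chain genes fell, a larger share than the 31.4% of all tested genes. Without that library but under median-ratio scaling, the share of chain genes that fell was again below that of all tested genes. Which share was larger thus depended on that library and on the scaling.

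**Figure D2:**
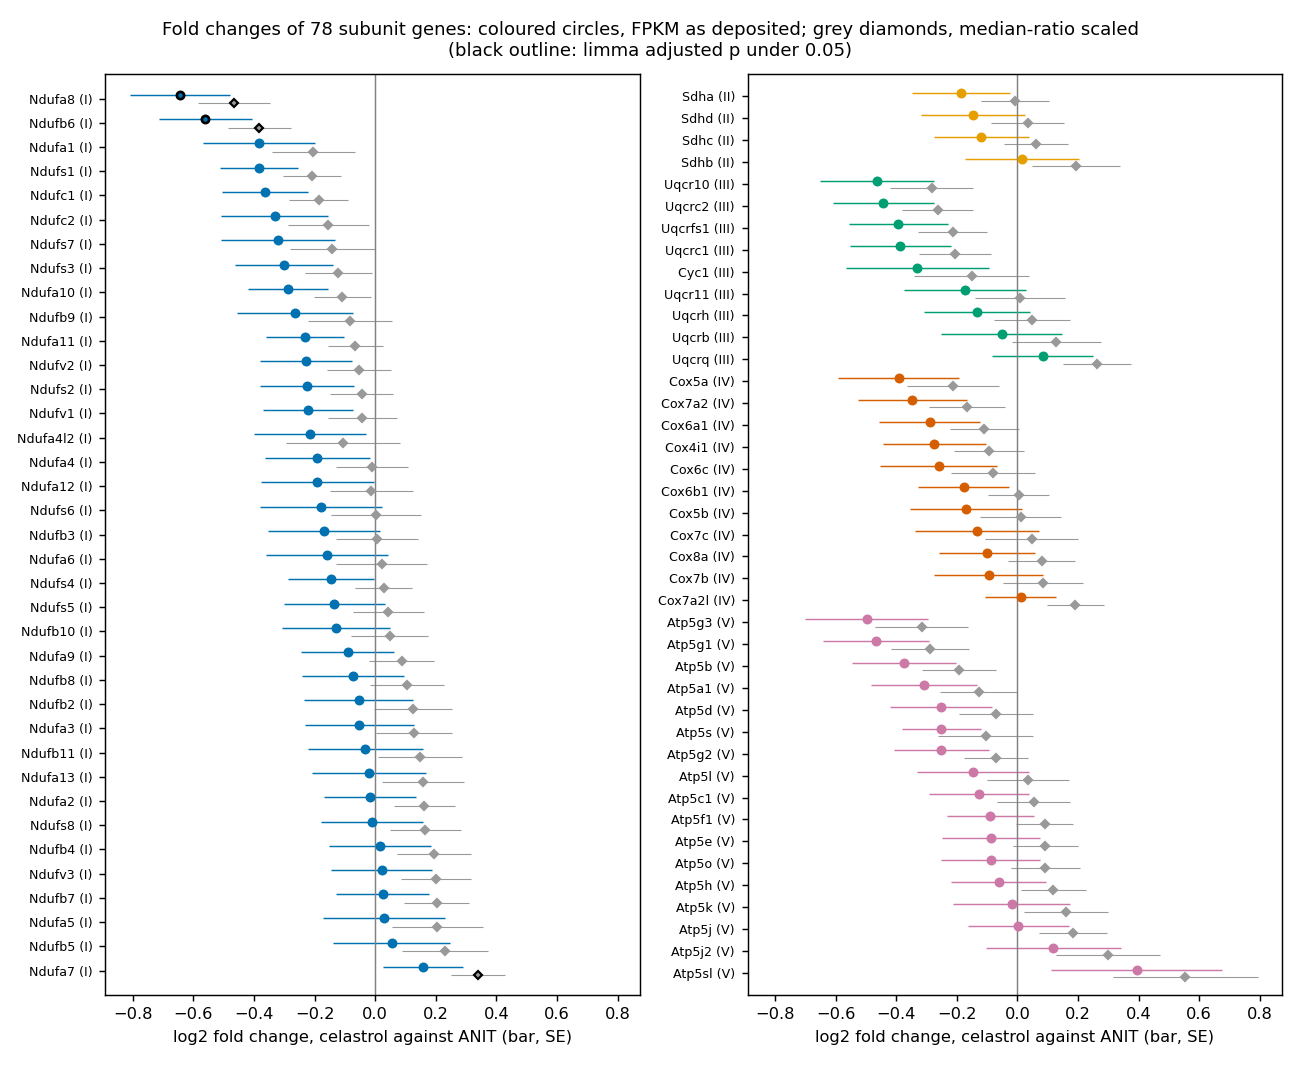
Each row is a tested gene with its complex in brackets, and the horizontal axis is the log2 fold change of celastrol against ANIT with its SE. Coloured circles are FPKM as deposited and grey diamonds median-ratio scaled FPKM, and a black outline marks a limma adjusted p under 0.05. Ndufa8 and Ndufb6 passed below 0 on both scales and Ndufa7 above 0 on the scaled values only.

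Complex I, the NADH dehydrogenase, had 37 tested genes, of which 2 fell, with a median log2 fold change of -0.17. Without celastrol replicate 2, 18 of the 37 fell (31.4% of all tested genes). Both genes that fell encode accessory subunits. Ndufa8, an accessory subunit with the cysteine motifs of proteins imported into the intermembrane space, measured 112.06, 96.46 and 93.20 FPKM with ANIT. It measured 59.94, 78.59 and 54.98 FPKM with celastrol, so every celastrol library was below every ANIT library. Its mean fell by 35.9%, a log2 fold change of -0.64 (SE 0.17, adjusted p = 0.028 by limma). Ndufb6, an accessory subunit of the membrane arm, measured 73.65, 72.37 and 70.81 FPKM in the ANIT libraries and 47.51, 59.44 and 40.84 FPKM in the celastrol libraries. The groups did not overlap, and the mean fell by 31.8% (log2 fold change -0.56, SE 0.15, adjusted p = 0.034 by limma). Both calls were lost when any 1 library other than celastrol replicate 2 was left out (limma adjusted p from 0.056 to 0.12), and both held without celastrol replicate 2 (0.0049 and 0.0048).

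The 7 catalytic core genes of complex I all had a log2 fold change below 0, with a median of -0.23, and none passed (1 at an unadjusted p under 0.05). Ndufs1, the largest iron-sulfur subunit, measured 33.97, 34.91 and 28.68 FPKM in the ANIT libraries and 22.44, 27.65 and 24.01 FPKM in the celastrol libraries. Its groups did not overlap, but it missed the threshold (log2 fold change -0.38, SE 0.13, adjusted p = 0.064 by limma). Ndufv1, which carries the flavin that accepts electrons from NADH, measured 68.9 ± 8.02 and 59.1 ± 8.06 FPKM (SD, n = 3 each, adjusted p = 0.30 by limma). The accessory genes had a median of -0.14 over 30 tested, and their lowest value was that of Ndufa8. Ndufc1 (adjusted p = 0.095 by limma) and Ndufa10 (adjusted p = 0.15 by limma) were the other complex I genes with every celastrol library below every ANIT library. When celastrol replicate 2 was left out, Ndufs1, Ndufc1 and Ndufa10 fell (limma adjusted p of 0.023, 0.012 and 0.026) and Ndufv1 did not pass (0.079).

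Ndufa7, an accessory subunit, was the only respiratory chain gene with every celastrol library above every ANIT library. It measured 106.11, 104.86 and 101.13 FPKM in the ANIT libraries and 107.23, 132.90 and 110.14 FPKM in the celastrol libraries, and the gap between the groups was small. As deposited it did not pass (log2 fold change 0.16, adjusted p = 0.40 by limma), and under median-ratio scaling it rose (log2 fold change 0.34, SE 0.09, adjusted p = 0.041 by limma). That call was lost with median-ratio scaling without celastrol replicate 2 (log2 fold change 0.31, adjusted p = 0.057 by limma), and as deposited the value without this library was 0.063 (adjusted p = 0.63 by limma). Ndufa4 was the most abundant gene with a complex I symbol, at 359 ± 12.3 and 319 ± 67.6 FPKM (SD, n = 3 each, adjusted p = 0.44 by limma). Its paralog Ndufa4l2, known as a hypoxia-responsive gene, was at 1.84 ± 0.419 and 1.47 ± 0.520 FPKM (SD, n = 3 each, adjusted p = 0.42 by limma). Leaving out celastrol replicate 2, Ndufa4 fell (limma adjusted p of 0.040) and Ndufa4l2 did not pass (0.45).

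**Figure D3:**
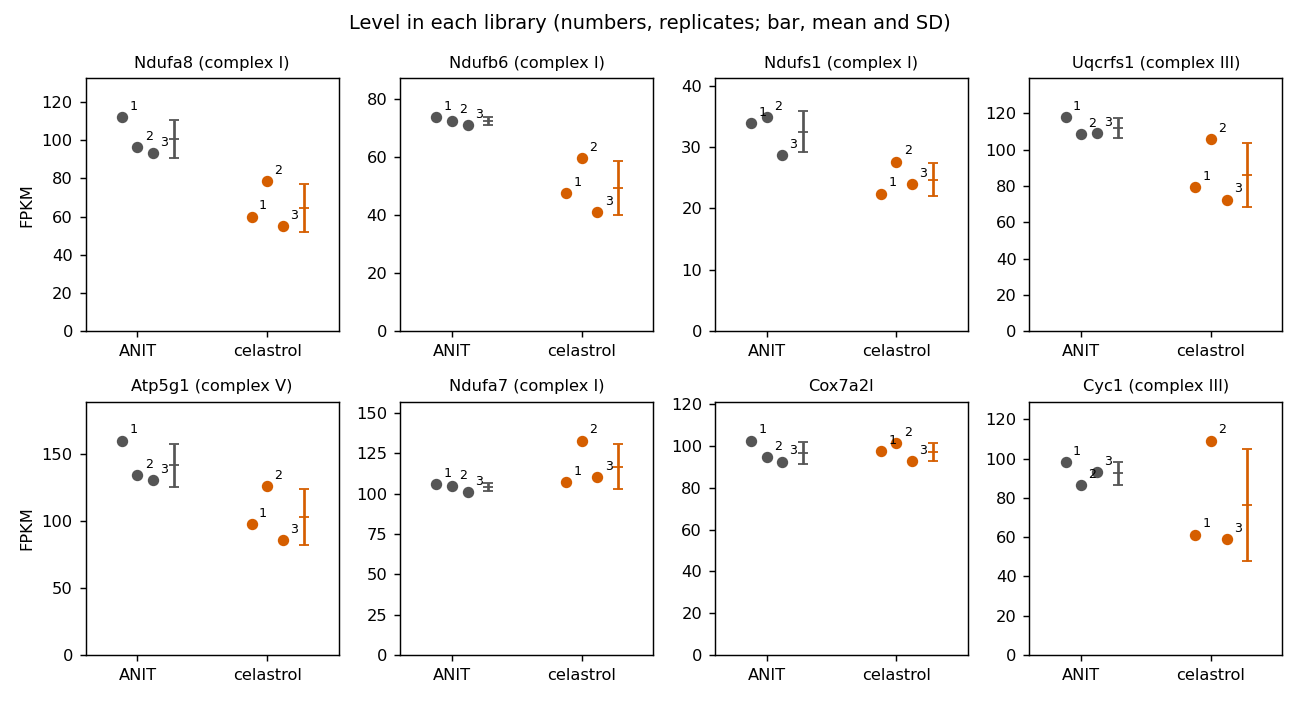
Each panel gives the FPKM of 1 gene (vertical axis, from 0) in the 3 ANIT and 3 ANIT plus celastrol (celastrol) libraries, numbered by replicate, with mean and SD. Ndufa8, Ndufb6, Ndufs1, Uqcrfs1 and Atp5g1 have no overlap between the groups, Ndufa7 lies higher with celastrol, Cox7a2l is level, and Cyc1 has celastrol replicate 2, at 109.17 FPKM, above the ANIT libraries.

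Promoters were read for the genes on which these results turn. For 68 of the 83 genes RefSeq gave at least 1 promoter of 300 bases (build GRCm38.p6, 250 bases before to 50 after the start). Those printed here belong to the 2 genes that fell and to Ndufa7, which lay higher with celastrol, so that they can be set side by side. Capitals mark letters matching a motif of a factor known to act on respiratory chain genes, as described after the sequences.
Ndufa8, chr2:36049289-36049588, minus strand: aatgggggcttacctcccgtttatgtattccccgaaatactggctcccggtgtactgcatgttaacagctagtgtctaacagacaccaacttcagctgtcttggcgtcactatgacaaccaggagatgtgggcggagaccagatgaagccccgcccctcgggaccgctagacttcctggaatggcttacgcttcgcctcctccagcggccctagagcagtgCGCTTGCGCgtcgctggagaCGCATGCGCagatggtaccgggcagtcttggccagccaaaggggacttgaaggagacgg
Ndufb6, chr4:40279372-40279671, minus strand: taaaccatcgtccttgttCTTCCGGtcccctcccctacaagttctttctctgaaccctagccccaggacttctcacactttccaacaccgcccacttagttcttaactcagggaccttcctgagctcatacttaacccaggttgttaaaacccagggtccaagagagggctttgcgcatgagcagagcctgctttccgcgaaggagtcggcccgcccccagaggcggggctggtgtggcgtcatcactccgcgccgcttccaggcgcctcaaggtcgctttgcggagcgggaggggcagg
Ndufa7, chr17:33824322-33824621, plus strand: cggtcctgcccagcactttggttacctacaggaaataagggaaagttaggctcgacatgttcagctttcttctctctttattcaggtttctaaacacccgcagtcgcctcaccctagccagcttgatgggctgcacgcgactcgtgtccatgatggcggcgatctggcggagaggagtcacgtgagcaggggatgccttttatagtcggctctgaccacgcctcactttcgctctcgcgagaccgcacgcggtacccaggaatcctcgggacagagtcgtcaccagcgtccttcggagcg

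The letters searched on both strands were GCGCANGCG for NRF1 (nuclear respiratory factor 1), CCGGAAG for ETS factors such as GABPA, TNAAGGTCA for estrogen-related receptors and AAGATGGCG for YY1. The NRF1 letters stood in 28.4% of 74 respiratory chain promoters and in 6.25% of all 32851 promoters. The ETS letters stood in 21.6% against 8.86%, the YY1 letters in 12.2% against 1.40% and the estrogen-related receptor letters in 4.05% against 1.28%. The Ndufa8 promoter held the NRF1 letters at 2 places, with first bases at -29 and -9 relative to the start. The Ndufb6 promoter held the ETS letters with the first base at -232, and the Ndufa7 promoter shown, the first of 2 listed, held none of the 4 motifs. The 20 tested genes with the NRF1 letters had -0.15 as their median log2 fold change, and the 45 without them also -0.15. With the ETS letters the median was -0.12 over 16 genes, and without them -0.17 over 49. A match describes letters only and not a bound site.

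Ndufa8 lies on chromosome 2 (positions 36036326 to 36049406), Ndufb6 on chromosome 4 (positions 40270591 to 40279421) and Ndufa7 on chromosome 17 (positions 33824572 to 33838317), in GENCODE release M21 of the same build. All are annotated there as protein-coding genes, and values are for whole genes, not for exons or isoforms.

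Complex II, the succinate dehydrogenase, is the smallest complex and also belongs to the citric acid cycle. None of its 4 genes passed, and none had an unadjusted p under 0.05 by limma. Sdha, the flavoprotein subunit, measured 107.43, 107.28 and 96.61 FPKM in the ANIT libraries and 79.58, 112.97 and 83.54 FPKM when celastrol was added (log2 fold change -0.19, SE 0.16, adjusted p = 0.42 by limma). Sdhb, the iron-sulfur subunit, measured 105.25, 91.24 and 87.15 FPKM in the ANIT libraries and 78.97, 124.08 and 87.86 FPKM when celastrol was added (log2 fold change 0.01, SE 0.19, adjusted p = 0.96 by limma). In both genes celastrol replicate 2 was the highest of all 6 libraries. Sdhd, a membrane anchor, had a log2 fold change of -0.15 (SE 0.17, adjusted p = 0.56 by limma). Without celastrol replicate 2, 2 of the 4 genes fell, where 31.4% of all tested genes did. These were Sdha and Sdhd (limma adjusted p of 0.041 and 0.047), and Sdhb did not pass (log2 fold change -0.18, 0.29).

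Complex III, the cytochrome bc1 complex, had the lowest median of the 5 complexes, at -0.33 over 9 genes. None passed with all libraries, and 4 had an unadjusted p under 0.05 by limma. Uqcrfs1, the Rieske iron-sulfur protein, measured 117.90, 108.59 and 108.84 FPKM in the ANIT libraries and 79.48, 105.81 and 72.46 FPKM in the celastrol libraries. Its groups did not overlap, though celastrol replicate 2 was within 3 FPKM of the lowest ANIT library (log2 fold change -0.39, SE 0.16, adjusted p = 0.11 by limma). The core proteins Uqcrc1 and Uqcrc2 had log2 fold changes of -0.39 (SE 0.17, adjusted p = 0.12 by limma) and -0.44 (SE 0.17, adjusted p = 0.090 by limma). Uqcr10, a small subunit, had one of -0.46 (SE 0.19, adjusted p = 0.11 by limma).

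Cyc1, the cytochrome c1 subunit, measured 98.15, 86.41 and 93.08 FPKM in the ANIT libraries and 61.29, 109.17 and 58.85 FPKM in the celastrol libraries. Its celastrol libraries lay on both sides of the ANIT range (log2 fold change -0.33, SE 0.24, adjusted p = 0.33 by limma). Uqcrq, a small ubiquinone-binding subunit, was at 134.89, 127.63 and 120.51 FPKM in the ANIT libraries and 129.28, 167.67 and 113.81 FPKM when celastrol was added (log2 fold change 0.08, adjusted p = 0.74 by limma). Without celastrol replicate 2, 6 of the 9 complex III genes fell, where 31.4% of all tested genes did. Among them were Cyc1, Uqcrfs1, Uqcrc1, Uqcrc2 and Uqcr10 (limma adjusted p of 0.0068, 0.0096, 0.010, 0.0076 and 0.0093). Uqcrq did not pass there (log2 fold change -0.07, 0.64). With median-ratio scaling as well, 2 genes fell, Uqcr10 and Uqcrc2 (10.9% of all tested genes).

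Complex IV, cytochrome c oxidase, has subunits with tissue-specific isoforms, and 11 of its 16 listed genes were tested. None passed, none had an unadjusted p under 0.05 by limma, and the median log2 fold change was -0.18. Leaving out celastrol replicate 2, 6 of the 11 fell (31.4% of all tested genes). Cox5a, a matrix-side subunit, measured 128.69, 120.42 and 129.53 FPKM in the ANIT libraries and 84.38, 131.69 and 79.38 FPKM when celastrol was added (log2 fold change -0.39, SE 0.20, adjusted p = 0.18 by limma). Cox4i1, the main isoform of subunit 4, had a log2 fold change of -0.27 (SE 0.17, adjusted p = 0.26 by limma). Cox6a1 and Cox7a2, the isoforms found in liver, had -0.29 (SE 0.17, adjusted p = 0.23 by limma) and -0.35 (SE 0.18, adjusted p = 0.19 by limma). Leaving out celastrol replicate 2, Cox5a, Cox4i1, Cox6a1 and Cox7a2 fell (limma adjusted p of 0.0058, 0.021, 0.029 and 0.013).

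The isoforms known from heart and skeletal muscle or other tissues were listed at low values and were not tested. Cox7a1 was at 1.44, 0.57 and 1.10 FPKM in the ANIT libraries and 0.28, 0.99 and 0.14 FPKM in the celastrol libraries. Cox6a2 was at 0.24, 0.24 and 0 FPKM in the ANIT libraries and 0.08, 0.63 and 0 FPKM in the celastrol libraries, and Cox8b at 0.15, 0 and 0 against 0, 1.02 and 0. For each of these 3 genes celastrol replicate 2, the library with the muscle markers, was the highest celastrol library. It was the highest of all libraries for Cox6a2 and Cox8b, but Cox7a1 was higher in ANIT replicates 1 and 3. Cox4i2 reached at most 0.22 FPKM and Cox6b2 at most 0.57 FPKM in any library. Cox8a, the ubiquitous isoform of subunit 8, measured 248 ± 13.0 and 234 ± 41.4 FPKM (SD, n = 3 each, adjusted p = 0.67 by limma). Cox7a2l was at a like level in both groups, at 102.54, 94.50 and 92.49 FPKM in the ANIT libraries and 97.40, 101.31 and 92.95 FPKM when celastrol was added (log2 fold change 0.01, SE 0.12, adjusted p = 0.95 by limma). Neither Cox8a nor Cox7a2l passed without celastrol replicate 2 (limma adjusted p of 0.12 and 0.90).

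Complex V, the ATP synthase, had a median of -0.13 over 17 genes, and none passed (2 at an unadjusted p under 0.05 by limma). Leaving out celastrol replicate 2, 6 of the 17 fell (31.4% of all tested genes). By part of the enzyme, the 3 genes of the c ring, the rotor in the membrane, had a median of -0.47, and the 5 genes of the F1 head and central stalk one of -0.25. The 4 genes of the peripheral stalk had a median of -0.07. Atp5g1, a c-ring gene, measured 159.63, 134.10 and 130.15 FPKM in the ANIT libraries and 97.39, 125.62 and 85.44 FPKM in the celastrol libraries, with no overlap (log2 fold change -0.47, SE 0.17, adjusted p = 0.086 by limma). Atp5g3, which encodes the same mature c subunit, had a log2 fold change of -0.50 (SE 0.20, adjusted p = 0.11 by limma), and the third c-ring gene, Atp5g2, one of -0.25 (SE 0.16, adjusted p = 0.27 by limma). The 3 genes encode an identical mature protein, so reads could be shared between them where the coding sequence is alike.

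Atp5b, the catalytic beta subunit and the most abundant gene of the chain, measured 447.78, 439.44 and 405.40 FPKM in the ANIT libraries and 289.85, 414.58 and 304.36 FPKM in the celastrol libraries. Celastrol replicate 2 lay within the ANIT range (log2 fold change -0.37, SE 0.17, adjusted p = 0.14 by limma). Atp5sl had the highest log2 fold change of the 78 genes, 0.39, and did not pass (SE 0.28, adjusted p = 0.34 by limma). It was at 18.36 FPKM in celastrol replicate 2 and between 7.52 and 10.17 FPKM in the other libraries. Leaving out celastrol replicate 2, Atp5b, Atp5g1, Atp5g2 and Atp5g3 fell (limma adjusted p of 0.013, 0.014, 0.026 and 0.0058) and Atp5sl did not pass (0.73).

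**Figure D4:**
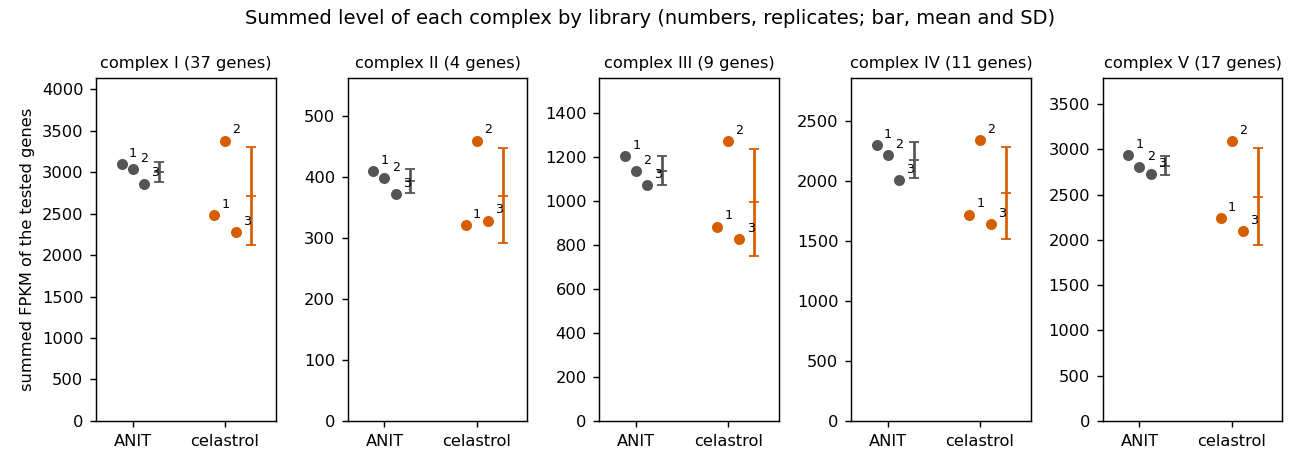
Summed FPKM of the tested genes of each complex (vertical axis, from 0) in the 3 ANIT and 3 ANIT plus celastrol (celastrol) libraries, numbered by replicate, with mean and SD. In each complex celastrol replicates 1 and 3 lie below the ANIT libraries and replicate 2 above them, for example 2479, 3379 and 2279 FPKM in complex I.

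The balance between complexes varied less between libraries than the sums did. The 78 genes summed to 9939, 9583 and 9037 FPKM with ANIT and 7644, 10544 and 7175 FPKM in celastrol replicates 1, 2 and 3. The ratio of the complex I sum to the complex V sum lay between 1.05 and 1.08 with ANIT and between 1.08 and 1.11 with celastrol. That of complex III lay between 0.394 and 0.410 in the ANIT libraries and between 0.393 and 0.411 in the celastrol libraries. That of complex IV lay between 0.736 and 0.790 and between 0.755 and 0.780, and that of complex II between 0.136 and 0.142 and between 0.143 and 0.156. The ranges of the groups overlapped for complexes III and IV, and for complexes I and II the celastrol libraries lay just above the ANIT libraries.

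Relative to the median gene of the chain, some subunits lay lower and others higher in all 3 celastrol libraries. This was measured by scaling each library to the median respiratory chain gene, a setting chosen after the data were seen. Scaling to a median of the same genes places genes on both sides in every library, so such a split is not in itself a result. On this scale every celastrol library was below every ANIT library for 18 of the 78 genes (18.9% of all tested genes) and above for 17 (13.5%). Ndufa8 lay at -0.43, -0.50 and -0.46 log2 units relative to its ANIT mean in celastrol replicates 1, 2 and 3, and it alone passed (log2 fold change -0.46, adjusted p = 0.036 by limma, 7.05% of all tested genes lower and 4.86% higher). Ndufb6 had a log2 fold change of -0.38 (adjusted p = 0.072 by limma).

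Genes whose scaled value was lower in every celastrol library than in every ANIT library included Uqcrc1, Uqcrc2, Uqcrfs1 and Uqcr10 of complex III, Atp5g1, Atp5g3 and Atp5b of complex V and Cox4i1, Cox5a and Cox7a2 of complex IV. None of these passed, and their log2 fold changes ran from -0.31 (Atp5g3) to -0.09 (Cox4i1). Genes whose scaled value was higher in every celastrol library included Uqcrq of complex III, with a log2 fold change of 0.27, and Ndufa7, with 0.35 (limma adjusted p of 0.17 and 0.11). Atp5h, Atp5j and Atp5o, 3 genes of the peripheral stalk, were also among these, with log2 fold changes of 0.13, 0.19 and 0.10 (limma adjusted p of 0.56, 0.36 and 0.65). These genes were picked because all 3 celastrol libraries lay on the same side of the ANIT libraries. Their agreement across libraries follows from that choice and is not a separate result. Of the respiratory chain genes only Ndufa8 passed on this scale.

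Genes that serve the chain were compared by the same fit, from lists of related genes. Of 44 tested assembly factors of complexes I to V, 5 fell and none rose (20.6% and 4.41% of all tested genes), with a median of -0.23. Under median-ratio scaling 2 fell (11% of all tested genes), with a median of -0.06. Coa3, which stabilises newly made cytochrome oxidase subunit 1, measured 60.40, 58.35 and 60.38 FPKM in the ANIT libraries and 34.75, 45.89 and 28.19 FPKM when celastrol was added (log2 fold change -0.73, SE 0.18, adjusted p = 0.022 by limma). Cox19, a copper-related factor of complex IV, fell from 23.7 ± 2.17 to 16.1 ± 2.46 FPKM (SD, n = 3 each, adjusted p = 0.025 by limma). The others that fell were Coa7 and Tmem70, factors of complexes IV and V, and Sdhaf3, a factor of complex II. Each of the 5 calls was lost without at least 4 of the single libraries in turn (limma adjusted p from 0.058 to 0.15), that of Sdhaf3 also without celastrol replicate 2 (0.066). Median-ratio scaling ended the calls of Coa7, Tmem70 and Sdhaf3 (limma adjusted p of 0.16, 0.20 and 0.13).

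Of 18 tested electron carriers and genes of ubiquinone synthesis, 2 fell and none rose (20.6% and 4.41% of all tested genes), with a median of -0.16. Under median-ratio scaling 1 fell (11% of all tested genes), and the median was 0.01. Cycs, the soluble cytochrome c that links complexes III and IV, measured 40.63, 36.78 and 32.55 FPKM in the ANIT libraries and 22.07, 28.37 and 20.92 FPKM in the celastrol libraries. The groups did not overlap, and unlike most subunit genes celastrol replicate 2 was also below the ANIT libraries (log2 fold change -0.61, SE 0.15, adjusted p = 0.023 by limma). Leaving out ANIT replicate 1 or 2, or celastrol replicate 1 or 3, ended the call (limma adjusted p from 0.068 to 0.092). Pdss2, which makes the ubiquinone side chain, fell from 4.50 ± 0.224 to 3.26 ± 0.0400 FPKM (SD, n = 3 each, adjusted p = 0.021 by limma), a call lost without any 1 library other than celastrol replicate 2 and under median-ratio scaling (0.054 to 0.13).

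In the citric acid cycle, which feeds NADH and succinate to the chain, 6 of 14 tested genes fell and none rose (20.6% and 4.41% of all tested genes), with a median of -0.45. Mdh2, the mitochondrial malate dehydrogenase, measured 142.17, 129.64 and 117.89 FPKM in the ANIT libraries and 74.28, 91.79 and 72.63 FPKM in the celastrol libraries, with no overlap. Its log2 fold change was -0.70 (SE 0.15, adjusted p = 0.013 by limma), and leaving out ANIT replicate 1 or 2, or celastrol replicate 1, ended the call (limma adjusted p from 0.051 to 0.062). Ogdh, the first subunit of the oxoglutarate dehydrogenase, fell from 32.0 ± 0.515 to 24.1 ± 1.38 FPKM (SD, n = 3 each, adjusted p = 0.027 by limma), a call lost in the same settings as that of Pdss2 (0.064 to 0.12). Dld, Dlst and Idh3g were also among the genes that fell. Under median-ratio scaling 1 of the 14 fell (11% of all tested genes), with a median of -0.28.

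Of 77 tested genes of the mitochondrial ribosome, which translates the subunits encoded by mitochondrial DNA, 14 fell and none rose (20.6% and 4.41% of all tested genes), with a median of -0.25. Under median-ratio scaling 7 fell (11% of all tested genes), with a median of -0.08. Mrps18b fell from 46.2 ± 3.57 to 29.0 ± 1.41 FPKM (SD, n = 3 each, adjusted p = 0.0070 by limma) and Mrpl18 from 84.3 ± 14.0 to 43.0 ± 7.14 FPKM (SD, n = 3 each, adjusted p = 0.0088 by limma). Both calls held without any 1 library and under median-ratio scaling, with limma adjusted p of at most 0.043. Of 22 tested genes of protein import 2 fell, Timm8a1 and Tomm20, and none rose (limma adjusted p of 0.038 and 0.047, 20.6% and 4.41% of all tested genes), with a median of -0.28, or -0.13 under median-ratio scaling. Both import calls were lost under median-ratio scaling and without any 1 library other than celastrol replicate 2 (limma adjusted p from 0.060 to 0.31).

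Among 14 tested regulators of mitochondrial gene expression none passed, with 5 lower and 0 higher at an unadjusted p under 0.05 by limma and a median of -0.19. Ppargc1a, a coactivator that drives mitochondrial biogenesis, measured 2.97, 3.13 and 2.84 FPKM in the ANIT libraries and 1.11, 2.22 and 2.24 FPKM in the celastrol libraries. Its groups did not overlap but it missed the threshold (log2 fold change -0.51, SE 0.17, adjusted p = 0.068 by limma). Nrf1, Esrra and Tfam had log2 fold changes of -0.17, -0.43 and -0.20 (limma adjusted p of 0.36, 0.16 and 0.20). Tfb1m and Lrpprc, which act on mitochondrial ribosomal RNA and messenger RNA, had -0.39 and -0.29 (limma adjusted p of 0.059 and 0.064). Related genes outside the symbol rule, Ndufab1, Usmg5, Atpif1 and 2010107E04Rik, did not pass either, with 2 of 4 lower at an unadjusted p under 0.05 by limma. All 4 fell without celastrol replicate 2, with a median of -0.46, where 31.4% of all tested genes fell.

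The median of celastrol replicate 2 was below the ANIT mean for each of these lists and above it for the 78 subunits. Its median was -0.03 for assembly factors, -0.07 for electron carriers, -0.22 for the citric acid cycle, -0.06 for the mitochondrial ribosome, -0.08 for import and -0.06 for the regulators, against 0.17 for the 78 subunits. For the 4 related genes outside the symbol rule it was -0.04, below the ANIT mean as in the lists. Without this library 15 of 44, 5 of 18, 11 of 14, 36 of 77, 12 of 22 and 4 of 14 genes of those 6 lists fell, and 31.4% of all tested genes did. Without 1 of the other libraries the counts ran from 0 to 4, 0 to 1, 0 to 4, 3 to 8, 0 to 0 and 0 to 0. Over all tested genes the share that fell was also smaller there, from 8.58 to 14.4%. The subunits were not alone in lying above the ANIT mean in celastrol replicate 2. Its median was 0.12 for hepatocyte, 0.25 for stellate, 0.80 for Kupffer, 0.62 for neutrophil and 0.85 for endothelial markers, and -0.47 for cholangiocyte markers. Hepatocyte markers were below the ANIT mean in celastrol replicates 1 and 3 (-0.45 and -0.17), as were stellate markers (-0.53 and -1.02). Kupffer (0.65 and 0.06), neutrophil (0.54 and 0.81) and endothelial markers (0.57 and 0.24) were above it there too. Their place above the ANIT mean was thus not particular to replicate 2. Cholangiocyte markers were at 0.10 and -1.07.

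**Figure D5:**
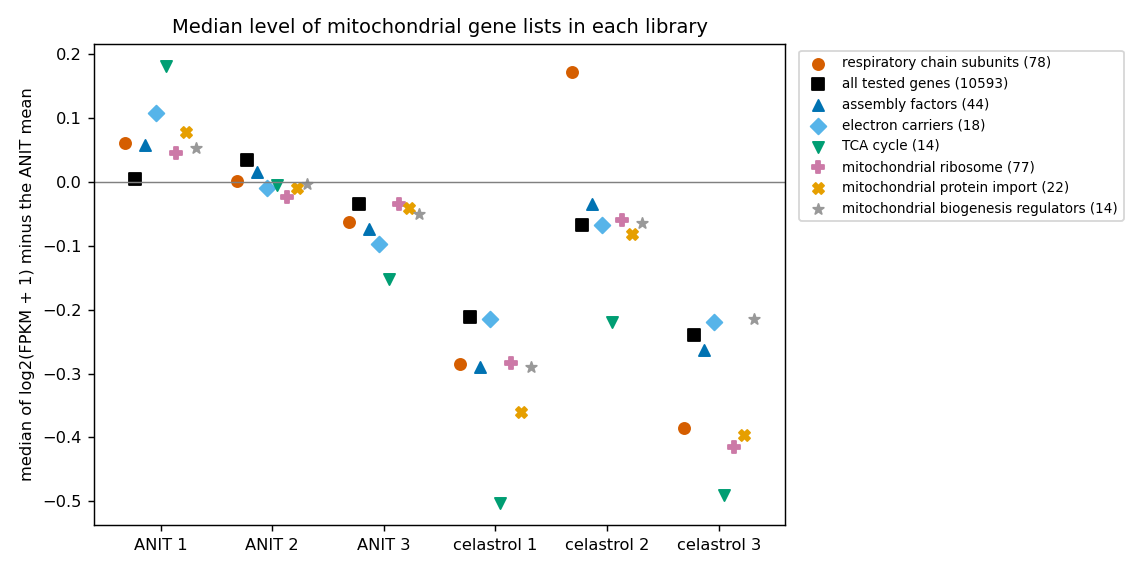
Median of log2(FPKM + 1) minus the ANIT mean (vertical axis) for the respiratory chain genes, all tested genes and 6 lists, in the 3 ANIT and 3 ANIT plus celastrol (celastrol) libraries. Numbers in brackets are tested genes. In celastrol replicate 2 the respiratory chain genes lie at 0.17, and all tested genes and the 6 lists drawn here lie below 0. Cell marker lists are not drawn.

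Markers of other liver cells moved with the groups to different degrees. Over all tested genes 20.6% fell and 4.41% rose with all libraries, and 31.4% fell and 4.86% rose without celastrol replicate 2. The summed level of 5 neutrophil markers was 30.83 to 53.99 FPKM with ANIT and 63.97 to 88.69 FPKM with celastrol, and 3 of 4 tested rose (S100a8, S100a9 and Ly6g). None of these 3 calls held without ANIT replicate 3, celastrol replicate 1 or celastrol replicate 3 (limma adjusted p from 0.058 to 0.11), and that of S100a9 was also lost without celastrol replicate 2 (0.074). Without ANIT replicate 1 the calls of S100a9 and Ly6g were lost (0.11 and 0.090). The 5 endothelial markers summed to 20.89 to 38.22 and 32.20 to 58.42 FPKM, with 1 of 5 tested higher (Stab2), a call lost without celastrol replicate 1 (limma adjusted p of 0.057). The 5 Kupffer cell markers summed to 72.25 to 177.07 and 127.76 to 192.02 FPKM, and none of 5 tested passed (0 at an unadjusted p under 0.05 by limma). The 5 cholangiocyte markers summed to 38.84 to 46.15 and 16.24 to 44.70 FPKM, with 1 of 3 tested lower (Krt19), a call lost without ANIT replicate 2 or celastrol replicate 1 (limma adjusted p of 0.054 and 0.057). The 5 stellate cell markers summed to 4.95 to 10.47 and 2.72 to 9.86 FPKM, with none of 3 tested past the threshold (1 lower at an unadjusted p under 0.05 by limma) and 1 lower without celastrol replicate 2. Of the 5 adipocyte markers Ucp1 and Plin1 were listed in no library, the rest summed to 9.78 to 15.56 and 5.99 to 15.06 FPKM, and the 1 tested, Fabp4, did not pass with all libraries and fell without celastrol replicate 2. In bulk tissue, fewer cells of a type and less RNA per cell cannot be told apart, and the part of these markers in the levels of the respiratory chain genes was not tested.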

How the data were processed

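Liver RNA was sequenced in 3 libraries with ANIT and 3 with ANIT plus celastrol, grouped by their titles. The values the authors deposited are FPKM, in 1 table of gene symbols per library, per the file headers. The submitters' processing notes name HISAT2, featureCounts and mm10. Tool versions, annotation, strand and the step from counts to FPKM: not given in the sources used here. Without strand, reads of overlapping antisense genes cannot be told apart. A symbol absent from a table was set to 0, and 2 repeated names per library were left out.

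GENCODE exon lengths served to estimate depth. Genes reaching 1 FPKM in 3 or more libraries entered limma 3.58.1 (R 4.3.3) as log2(FPKM + 1), with trended, robust empirical Bayes variance and group as the only term. Benjamini-Hochberg adjustment ran over all of them, at a threshold of 0.05. Fold changes understate the change of genes near 1 FPKM. The fit was tested on simulated data: over 5 draws with 200 changed genes among 10443 on average, it recovered 74.6% of 2-fold and 95.3% of 4-fold changes, and 6.25% of calls were false. The draws varied each gene independently, without the shifts of whole libraries seen here, so these rates need not hold for the real data. Alternatives were median-ratio scaling, TPM, pseudocount 0.1, no filter, a length correction, a replicate block, each library left out, and settings added later.

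Named subunits were every gene past the threshold, the 2 smallest p of each complex, and a set of catalytic subunits and isoforms. For each pathway list the 2 smallest p were named, and Ppargc1a, Nrf1, Tfam, Esrra and Cycs whatever their values. Every other subunit or list gene named was chosen after its values were seen. Members and lists were chosen with earlier results of these data known. The values of 1 gene of the citric acid cycle list are not reported here.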

Additional observations from a re-analysis of the deposited data

How the results depend on the processing

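The count of 2 falling genes was 0 without the filter, 10 when rescaled to TPM, 1 when scaled by the median member, 0 with the replicate block and median-ratio scaling together, and 7 without celastrol replicate 2 under median-ratio scaling. It ranged from 0 to 38 when 1 library was left out. In complex I the count of 2 was 0, 4, 1 and 0 in the first 4 of these settings and ranged from 0 to 18 with 1 library left out. The counts of 0 in complexes II, III, IV and V became up to 2, 6, 6 and 6 with 1 library left out. Complexes III and V had 4 and 2 when rescaled to TPM, and complexes III, IV and V had 2, 1 and 1 without celastrol replicate 2 under median-ratio scaling. The 0 rising genes became 1, in complex I, under median-ratio scaling and under a length correction. The median of complex V, -0.13, was 0.060 when scaled by the median member. A pseudocount of 0.1 and leaving out the 20 most abundant genes left both falling counts at 2. The cause of these changes was not tested.

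Signs changed for genes near 0. Cox8a was 0.080, 0.068, 0.087 and 0.080 under median-ratio scaling, length correction, scaling by the median member and the replicate block with median-ratio scaling, and 0.010 without celastrol replicate 2 under median-ratio scaling. Sdhd was 0.033, 0.024, 0.040 and 0.033 in the first 4 of these. Sdha was 0.0023 under length correction. When rescaled to TPM, Cox7a2l was -0.12 and Sdhb -0.11. With 1 library left out Cox7a2l ranged from -0.019 to 0.055 and Sdhb from -0.18 to 0.15. Of 384 recomputed values of named genes, 323 kept their direction and side of the threshold, 15 lost a call, 28 gained one and 18 changed sign.

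Same-numbered libraries did not all deviate together (correlations over all tested genes of 0.15, 0.23 and -0.09 for replicates 1, 2 and 3), so the numbers were not taken to pair them. With the replicate number as a block 2 genes fell and 0 rose, with limma adjusted p of 0.039 for Ndufa8 and 0.043 for Ndufb6. The 4 settings that leave out abundant genes, scale by the median member, or combine median-ratio scaling with the block or with leaving out celastrol replicate 2 were chosen after seeing the data. Precision is limited by 3 libraries per group.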
